A study of Homo sapiens with 2 samples.

Results

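Secreted cytokine and chemokine genes were followed in the open chromatin of G401 cells, an established human line from a rhabdoid tumor of the kidney. The group held 38 genes, of 20163 protein-coding genes with a transcription start site (TSS) on the assembled chromosomes: 12 CC chemokines, 12 CXC chemokines, the CX3C chemokine CX3CL1, 9 interleukins and 4 growth factors, namely LIF and the colony-stimulating factors CSF1, CSF2 and CSF3. They were chosen by name as secreted signals of inflammation, and the rule used no measured value, but the choice was made with earlier results of these data known. The assay was ATAC-seq, in which the transposase Tn5 cuts accessible DNA. Of the 2 libraries, one came from a culture given the solvent DMSO and the other from a culture given 3 µM MAK683, a compound that binds the EED subunit of PRC2, the complex that methylates histone H3 at lysine 27. Both cultures carried the same G401 genotype, were treated for 3 days and grew in the same medium (DMEM with serum and 2-mercaptoethanol). There was 1 library per group, so no difference given here has a replicate check, no p-value was computed, and an effect of MAK683 cannot be told apart from a difference between the cultures or libraries. A promoter peak was a peak within 3 kb of the TSS. The height of a promoter was the tallest pileup of tags (sequenced ends, each extended around the cut) among its peaks, given in tags and as tags per 1000000 tags after filtering (RPM). Intervals are 95% exact intervals that cover counting error only.

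Cytokines and chemokines are small secreted proteins that carry signals between cells. Chemokines bind G protein-coupled receptors and attract leukocytes, interleukins and colony-stimulating factors bind single-pass receptors that signal through kinases, and many of these genes are silent until NF-kB, AP-1, C/EBP or interferon-driven factors bind their promoters. Senescent and inflamed tumor cells can secrete several of them. Related chemokine genes lie side by side in clusters, the CXC ligands of neutrophils on chromosome 4 and most CC chemokines on chromosome 17.

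The sequences of 6 promoters introduce some of the genes that the results turn on. Accessible sites differed most in number in a chromosome 4 cluster of CXC chemokines, printed here except for CXCL6. IL11 was the tallest member promoter in DMSO. CCL2 and IL7 had no RefSeq promoter to print. Each sequence is the stretch of 250 bases before the RefSeq transcript start, 5′ to 3′ on the strand of the gene. It was taken from RefSeq promoters (GRCh38.p14) and placed by exact match on GRCh37. Capitals mark matches to GGNNNTTCC, a form of the NF-kB motif, searched on both strands.
CXCL1 (chr4:74734860-74735109, + strand): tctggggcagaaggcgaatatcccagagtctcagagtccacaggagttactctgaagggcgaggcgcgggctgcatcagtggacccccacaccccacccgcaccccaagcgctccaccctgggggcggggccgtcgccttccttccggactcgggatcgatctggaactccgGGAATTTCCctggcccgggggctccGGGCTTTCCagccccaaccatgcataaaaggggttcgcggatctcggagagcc
CXCL2 (chr4:74964913-74965162, − strand): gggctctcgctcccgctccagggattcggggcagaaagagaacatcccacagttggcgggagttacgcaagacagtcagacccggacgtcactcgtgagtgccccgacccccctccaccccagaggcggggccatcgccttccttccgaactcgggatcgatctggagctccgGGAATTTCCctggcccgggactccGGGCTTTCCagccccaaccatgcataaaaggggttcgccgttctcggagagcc
CXCL3 (chr4:74904407-74904656, − strand): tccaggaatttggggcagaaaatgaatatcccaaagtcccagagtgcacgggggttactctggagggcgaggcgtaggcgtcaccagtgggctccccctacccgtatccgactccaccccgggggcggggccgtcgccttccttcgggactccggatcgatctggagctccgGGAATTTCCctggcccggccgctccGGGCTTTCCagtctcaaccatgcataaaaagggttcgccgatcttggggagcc
CXCL5 (chr4:74864395-74864644, − strand): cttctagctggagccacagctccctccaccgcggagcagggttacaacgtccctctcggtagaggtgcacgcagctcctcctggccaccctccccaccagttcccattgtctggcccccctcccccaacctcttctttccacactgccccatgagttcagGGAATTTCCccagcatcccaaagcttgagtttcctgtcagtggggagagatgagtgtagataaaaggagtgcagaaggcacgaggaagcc
CXCL8 (chr4:74606036-74606285, + strand): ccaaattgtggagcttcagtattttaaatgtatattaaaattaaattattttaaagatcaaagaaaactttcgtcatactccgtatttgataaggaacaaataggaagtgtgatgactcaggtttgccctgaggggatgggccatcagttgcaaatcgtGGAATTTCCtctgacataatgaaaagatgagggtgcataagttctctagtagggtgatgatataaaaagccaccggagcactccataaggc
IL11 (chr19:55881832-55882081, − strand): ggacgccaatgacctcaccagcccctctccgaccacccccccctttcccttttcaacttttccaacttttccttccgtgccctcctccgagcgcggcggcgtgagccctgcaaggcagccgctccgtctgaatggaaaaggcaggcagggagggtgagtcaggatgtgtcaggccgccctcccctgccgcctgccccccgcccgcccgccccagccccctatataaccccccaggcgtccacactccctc
CXCL1, CXCL2 and CXCL3 each held 2 matches, GGAATTTCC followed by GGGCTTTCC, while CXCL5 and CXCL8 held GGAATTTCC alone and IL11 held no match. GGAATTTCC began 78 bases before the start in CXCL1 and CXCL3, 77 in CXCL2, 90 in CXCL5 and 91 in CXCL8. In global alignments, the stretches of CXCL1 and CXCL3 were identical at 81.4% of aligned positions, those of CXCL2 and CXCL3 at 73.4%, those of CXCL1 and CXCL2 at 70.1%, and those of CXCL1 and CXCL8 at 43.9%. A match is a description of letters and not a bound site.

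In the DMSO library, 13 of the 38 genes had a promoter peak (34.2%, Wilson interval 21.2 to 50.1). Among all protein-coding genes the share was 72.7%. In the MAK683 library, 20 of the 38 had one (52.6%, interval 37.3 to 67.5), against 78.7% of all genes. Both libraries thus held a peak at a smaller share of cytokine promoters than of promoters in general. A peak was called in MAK683 only at 9 members (CCL2, CCL3, CCL25, CXCL1, CXCL2, CXCL5, CXCL16, IL1B and IL32), where 7.87% of all protein-coding genes were in that class, and in DMSO only at 2 (CSF2 and IL18), where 1.84% were. The other members were 11 with a peak in both libraries and 16 with none. Only a gene without a DMSO peak can be in the MAK683 only class, and fewer members than genes in general had a DMSO peak. Among genes without one, 9 members had a MAK683 peak and 16 did not, beside 1587 and 3916 of all protein-coding genes. The MAK683 list was also the longer one, 161184 peaks against 114060. With the MAK683 list cut to the number of DMSO peaks, 16 members had a peak in MAK683, 6 in MAK683 only, 3 in DMSO only and 13 in DMSO. Of all protein-coding genes, 75.9% then had a peak in MAK683 and 72.7% in DMSO. In bulk cells, more cells with an open site and a more open site in each cell cannot be told apart.

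**Figure D1:**
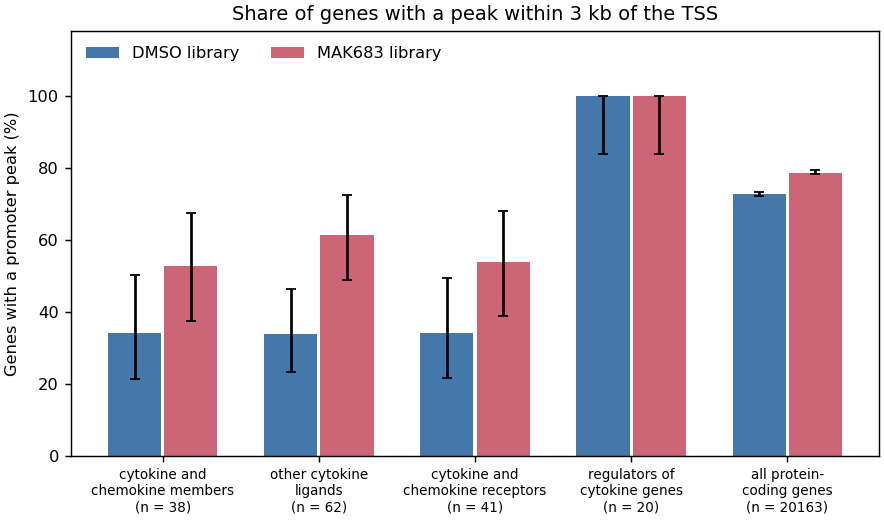
Share of genes with a promoter peak within 3 kb of the TSS (y axis, %) in the DMSO and MAK683 libraries for the members, 3 related gene lists and all protein-coding genes, with Wilson 95% intervals. The members reached 34.2% in DMSO and 52.6% in MAK683, below the 72.7% and 78.7% of all genes, and all 20 regulators had a peak in both libraries.

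Where a peak was present it was low. The median height was 16 tags (0.964 RPM) over the 13 members with a peak in DMSO and 13 tags (0.712 RPM) over the 20 with a peak in MAK683, and the corresponding medians over all protein-coding genes were 32 tags (1.93 RPM) and 24 tags (1.31 RPM). The tallest member promoters were IL11 in DMSO, with 27 tags, and CXCL3 and IL7 in MAK683, each with 28 tags. To compare the libraries, a missing peak was set to the lowest height called in DMSO, 6 tags or 0.361 RPM, here called the floor. A difference from the floor is a difference from the weakest peak that could be listed, and not from a measured height. Of the 22 members with a peak in either library, 12 were higher and 10 lower in MAK683, with a median log2 ratio of 0.07 where the median over all 16247 protein-coding genes with a peak was -0.42. The 4 members at least 2-fold higher in MAK683 were CXCL2, CCL2, IL7 and CXCL1 (3.37% of all genes with a peak passed this limit), and 0 members were at least 2-fold lower (5.75% of all genes were). Among the 11 members with a peak in both libraries, which need no floor, 3 were higher and 8 lower, and their median of -0.43 lay beside -0.46 over all such genes. A peak called in MAK683 only is above the floor by construction, so the median over all 22 members depends on how many such peaks there are. With the stricter limit of −log10 q of at least 5, which also raises the floor, 12 members had a peak in MAK683, the median log2 ratio was -0.051 and 1 member was at least 2-fold higher. Under that limit 71.9% of all protein-coding genes had a peak in MAK683, and the median over all genes with a peak was -0.43.

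**Figure D2:**
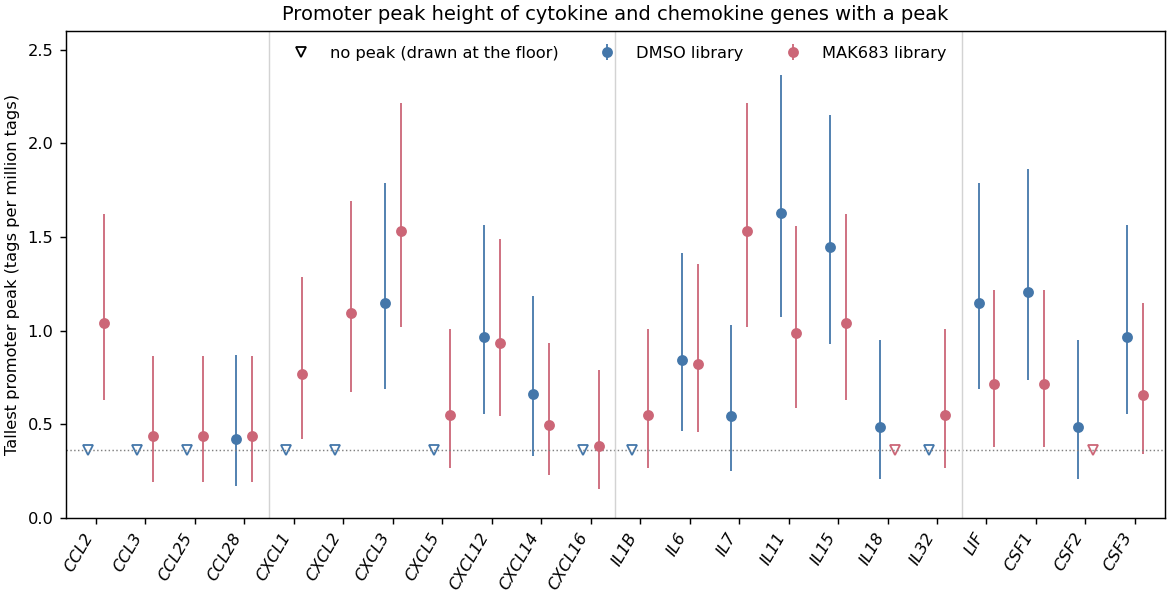
Height of the tallest promoter peak (y axis, RPM) of the 22 members with a peak in either library, grouped as CC chemokines, CXC chemokines, interleukins and growth factors. Points are the single library of each group, bars are 95% exact counting intervals, and open triangles on the dotted line at the floor of 0.361 mark libraries with no peak. CCL2, CXCL1 and CXCL2 had a point in MAK683 only, and LIF, CSF1 and CSF3 were lower in MAK683.

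The CXC chemokines showed the widest difference between the libraries, with a promoter peak at 3 of 12 in DMSO and at 7 of 12 in MAK683. CXCL1, CXCL2, CXCL3, CXCL5, CXCL6 and CXCL8 are ligands of CXCR2 that attract neutrophils. CXCL2 had no peak in DMSO and 20 tags in MAK683 (1.10 RPM, interval 0.669 to 1.69), a log2 ratio of 1.60 over the floor. That peak spanned chr4:74964016-74965463 and its summit lay 32 bases inside the gene, in the untranslated region. It covered the printed CXCL2 promoter with both NF-kB matches, and a second peak of 12 tags lay upstream. The start of the lncRNA gene ENSG00000289241 fell in the same window, so the promoters of these genes cannot be told apart. CXCL1 had no peak in DMSO and 14 tags in MAK683 (0.766 RPM, interval 0.419 to 1.29), a log2 ratio of 1.08 over the floor. Its peak, chr4:74733598-74735303, was 1706 bp long and ran across the printed promoter and the start, with the summit 807 bp upstream between genes. A peak found in MAK683 alone passed 2-fold over the floor from 14 tags, so CXCL1 stood exactly at that limit, and with equal peak numbers it was at 0.64.

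CXCL3 was the member of this cluster that was already accessible in DMSO, with 19 tags (1.14 RPM, interval 0.689 to 1.79). In MAK683 it had 28 tags (1.53 RPM, interval 1.02 to 2.22), and the log2 ratio of 0.42 had an interval from -0.47 to 1.34, so the heights differed by less than the counting error. Both tallest peaks covered the printed promoter. The span of all its peaks was wider in MAK683, 979 bp in DMSO and 2712 bp in MAK683. CXCL5 had no peak in DMSO and 2 in MAK683, the taller with 10 tags (0.547 RPM, log2 ratio of 0.60 over the floor), and its summit lay in an exon of the lncRNA gene ENSG00000287037. CXCL6 and CXCL8, the latter encoding interleukin 8, had no promoter peak in either library. The peak nearest to the CXCL8 start ended 10799 bp away in DMSO, with 7 tags, and 8563 bp away in MAK683, with 9 tags. CXCL8 and CXCL5 carried GGAATTTCC at a similar distance from the start, but a peak was called over the CXCL5 start in MAK683 alone and over the CXCL8 start in neither library.

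**Figure D3:**
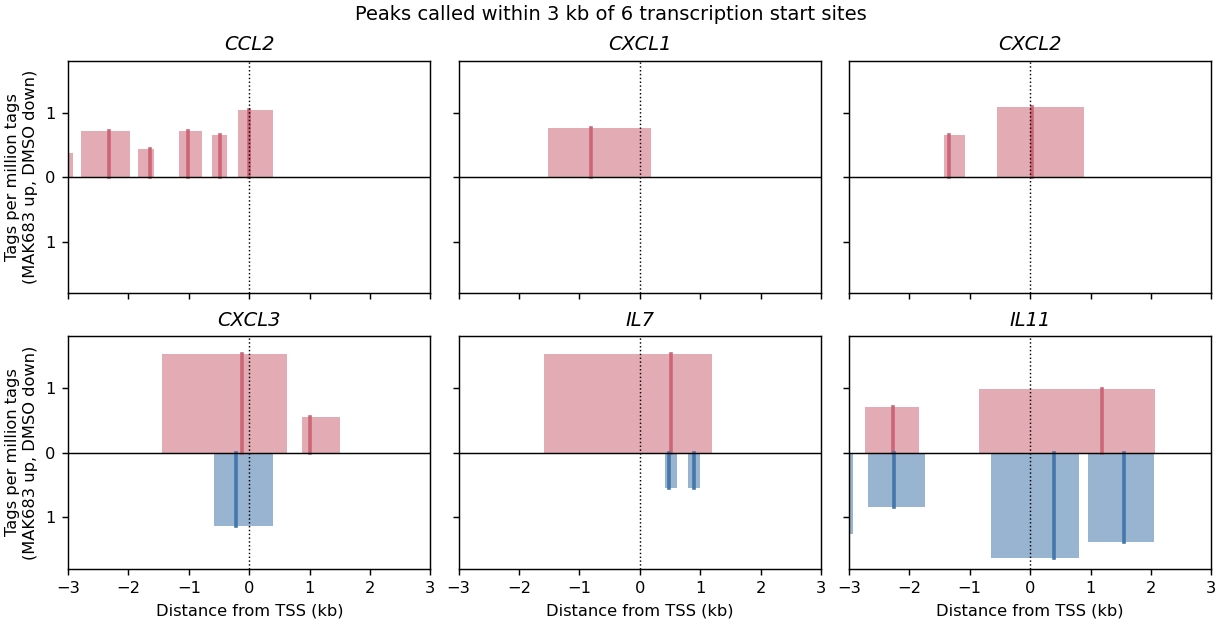
Peaks within 3 kb of 6 transcription start sites, drawn at their length along the distance from the TSS (x axis, kb, transcription to the right) and at their height (y axis, RPM, MAK683 upward and DMSO downward). Darker lines are summits. CCL2, CXCL1 and CXCL2 had peaks in MAK683 only, the MAK683 peaks of CXCL3 and IL7 were longer than the DMSO peaks, and IL11 was lower in MAK683.

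The difference reached beyond these promoters. From 10 kb before CXCL8 to 10 kb after CXCL2, chr4:74596236-74974913, a region of 378.7 kb, the DMSO library had 1 peak, that of CXCL3, and the MAK683 library had 20, which covered 15655 bp. Of those 20, 13 lay outside the promoter windows of the 6 members, the tallest with 17 tags. The ratio of 20 had an exact counting interval from 3.20 to 829. More peaks in MAK683 were also general here: the 1 Mb on each side held 44 peaks in DMSO and 92 in MAK683, a ratio of 2.09, and chromosome 4 as a whole held 4678 and 8548, a ratio of 1.83. When the genome was tiled with 8160 windows of the same length, 16.1% had at least 19 more peaks in MAK683, and 1.92% did so with 1 peak or none in DMSO. The 20 MAK683 peaks were low, between 7 and 28 tags, and 10 of them passed a −log10 q of 5, where DMSO kept its 1 peak.

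Other CXC chemokines differed less. CXCL12, the ligand of CXCR4 that retains progenitors in bone marrow, had 16 tags in DMSO (0.964 RPM) and 17 in MAK683 (0.931 RPM), a log2 ratio of -0.05 (interval -1.12 to 1.03). These tallest peaks lay at nearly the same place, 1639 and 1604 bp upstream of the start, but the number of peaks in the window was 1 in DMSO and 5 in MAK683, and the covered length was 558 and 2698 bp. A peak over the CXCL12 start itself, with 9 tags, was called in MAK683 only. CXCL14, a chemokine of resting epithelium, had 11 tags in DMSO and 9 in MAK683 in the same intron, a log2 ratio of -0.43 (interval -1.88 to 0.98). CXCL16, a membrane-bound chemokine that binds CXCR6, had 7 tags in MAK683 only. That summit lay in an intron of ZMYND15, whose start is in the same window, and the height was 0.08 above the floor on the log2 scale. CXCL9, CXCL10 and CXCL11, interferon-induced ligands of CXCR3, lacked a promoter peak in both libraries. Their 60.14 kb cluster held 1 peak in DMSO and 2 in MAK683, of at most 9 tags.

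**Figure D4:**
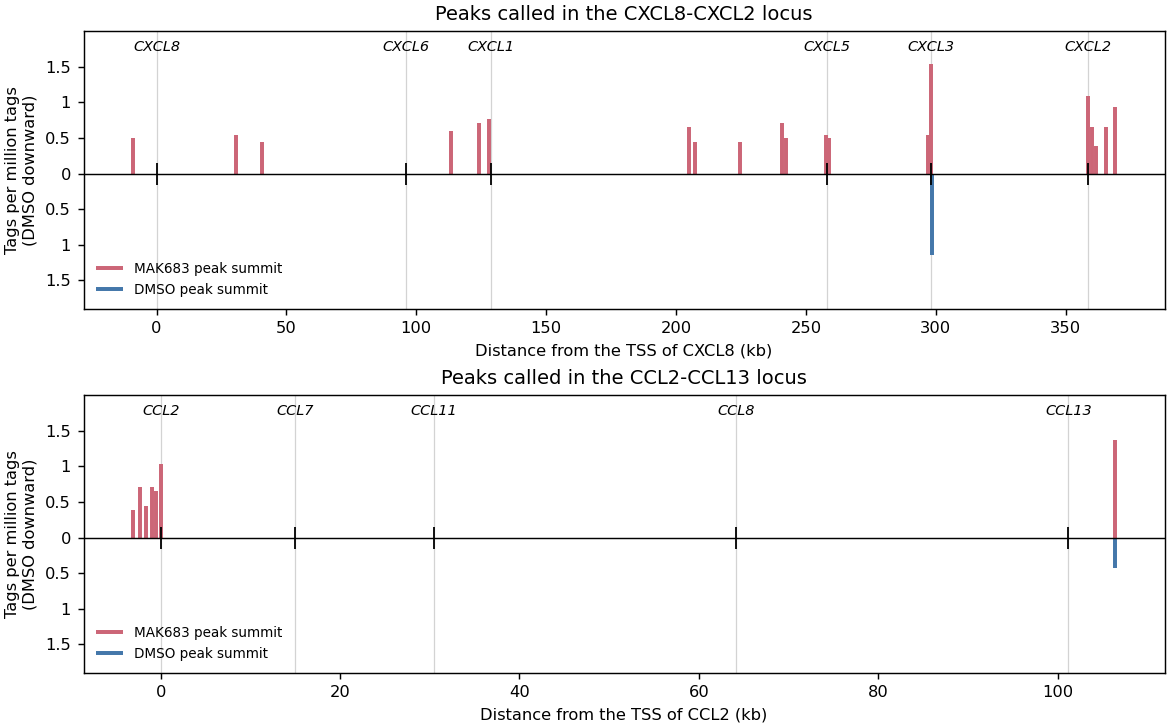
Peaks called along 2 chemokine clusters, by distance from the TSS of the first gene (x axis, kb), with height in RPM (y axis, MAK683 upward, DMSO downward); grey lines and ticks mark member TSSs. The CXCL8-CXCL2 cluster held 20 peaks in MAK683 and 1 in DMSO, and the CCL2-CCL13 cluster held 7 and 1, with 6 of the 7 at CCL2.

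Among the CC chemokines, CCL28 alone had a promoter peak in DMSO, and 4 of 12 had one in MAK683. CCL2, the main attractant of monocytes, had no peak in DMSO, where the nearest was 55122 bp from its start. In MAK683 it had 6 peaks within its window, covering 2354 bp, the largest number of any member. The tallest, chr17:32582123-32582692, had 19 tags (1.04 RPM, interval 0.626 to 1.62) with the summit 7 bp from the start, a log2 ratio of 1.52 over the floor. The other 5 lay upstream between genes, with summits from 488 to 3124 bp before the start and heights of 7 to 13 tags. CCL7, CCL11, CCL8 and CCL13, which follow CCL2 in the same cluster and attract monocytes and eosinophils, had no promoter peak in either library. Over the whole cluster, chr17:32572293-32695629, there was 1 peak in DMSO and there were 7 in MAK683 (ratio 7.0, interval 0.899 to 315). Chromosome 17 as a whole had fewer peaks in MAK683, 5201 against 6020 and a ratio of 0.864, whereas the 1 Mb on each side of the cluster had more, 78 against 17 and a ratio of 4.59. Among 25074 windows of this length, 9.75% had at least 6 more peaks in MAK683 with 1 or none in DMSO.

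The remaining CC chemokines stood at or near the detection limit. CCL25, a ligand of CCR9 made in thymus and gut, had 8 tags in MAK683 only (0.438 RPM). CCL3, an attractant of macrophages, likewise had 8 tags in MAK683 only, in 2 peaks of equal height, and near-identical copies of CCL3 and CCL4 make their counts uncertain. Both heights were 0.28 above the floor on the log2 scale. CCL28, a mucosal ligand of CCR10, had 7 tags in DMSO (0.422 RPM) and 8 in MAK683 (0.438 RPM), but these peaks were 2 different sites in an intron, 2471 and 431 bp from the start. CCL4, CCL5, CCL20 and CCL26 had none, and neither did CX3CL1, the ligand of CX3CR1.

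The interleukins had a peak at 5 of 9 promoters in DMSO and at 6 in MAK683. IL7, a survival factor for lymphocyte precursors, had 9 tags in DMSO (0.542 RPM, interval 0.248 to 1.03) and 28 in MAK683 (1.53 RPM, interval 1.02 to 2.22). The log2 ratio was 1.50 with an interval from 0.38 to 2.77, and among the 11 members with a peak in both libraries this was the one interval that left out 0. The accessible span at IL7 also differed, from 2 short peaks covering 407 bp in DMSO to a single peak of 2770 bp across the start in MAK683. The DMSO peaks, both of 9 tags, had summits 489 and 894 bp inside the gene and the MAK683 peak had its summit at 513 bp, and a lncRNA gene, ENSG00000285744, starts in the same window. Among the log2 ratios of all genes with a peak, IL7 and CCL2 stood at percentile 99.1, CXCL2 at 99.4 and CXCL1 at 96.9. Of these, only IL7 had a measured height in both libraries. The others were set against the floor, where a weak peak in MAK683 only also ranks high: CCL3 and CCL25, with 8 tags, stood at 84.2.

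IL11 and IL15 were lower in MAK683, as were 12737 of the 16247 protein-coding genes with a peak. Their log2 ratios stood at percentiles 19.5 and 44.3 among those genes. IL11, a cytokine that signals through IL6ST, had 27 tags in DMSO (1.63 RPM, interval 1.07 to 2.37) and 18 in MAK683 (0.985 RPM, interval 0.584 to 1.56), a log2 ratio of -0.72 (interval -1.67 to 0.19). Its window held 4 peaks in DMSO and 2 in MAK683, and the covered length was nearly equal at 3562 and 3810 bp. A single MAK683 peak of 2912 bp spanned 2 adjacent DMSO peaks of 1088 and 1454 bp. The tallest DMSO peak, chr19:55881028-55882481, covered the printed promoter. IL15, which sustains natural killer cells, had 24 tags in DMSO (1.45 RPM) and 19 in MAK683 (1.04 RPM), a log2 ratio of -0.48 (interval -1.42 to 0.45). IL6, a main cytokine of the acute phase, had nearly equal heights of 14 tags in DMSO (0.843 RPM) and 15 in MAK683 (0.821 RPM), with a log2 ratio of -0.04 (interval -1.19 to 1.12). Those summits lay 646 and 653 bp upstream, in an exon of IL6-AS1. MAK683 had 2 further IL6 peaks inside the gene, of 13 and 12 tags, and the covered length was 705 bp in DMSO and 1650 bp in MAK683.

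Members of the interleukin 1 family and IL32 had weak or missing peaks. IL1B, an inflammasome product that induces fever, had 10 tags in MAK683 only (0.547 RPM, log2 ratio of 0.60 over the floor), at an intronic summit 680 bp from the start. IL32, a proinflammatory cytokine, had the same height in MAK683 only, 1699 bp upstream. IL18, which induces interferon gamma, had 8 tags over its start in DMSO only (0.482 RPM), a log2 ratio of -0.42 to the floor. IL1A and the alarmin IL33 had no promoter peak. The nearest site to IL1A, 18864 bp away in DMSO and 19139 bp away in MAK683, had 53 and 36 tags, more than any promoter of the group.

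All 4 growth factors were lower in MAK683, as were 12737 of the 16247 protein-coding genes with a peak. CSF1, the growth factor of macrophages, had 20 tags in DMSO (1.20 RPM) and 13 in MAK683 (0.712 RPM), a log2 ratio of -0.76 (interval -1.89 to 0.32), with overlapping peaks across the start. LIF, a cytokine of the IL6 group, had 19 tags (1.14 RPM) and 13 (0.712 RPM), a log2 ratio of -0.69 (interval -1.83 to 0.41). CSF3, the granulocyte factor, had 16 tags (0.964 RPM) and 12 (0.657 RPM), a log2 ratio of -0.55 (interval -1.76 to 0.62). For LIF and CSF3 the tallest peaks of the libraries did not overlap, so different sites were compared. CSF2, the granulocyte and macrophage factor, had 8 tags in DMSO only, in a peak with its summit 2910 bp upstream, and the log2 ratio to the floor was -0.42, or 0.032 with equal peak numbers. Their median of -0.62 lay beside the -0.42 of all genes, and the intervals of CSF1, LIF and CSF3 included 0.

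**Figure D5:**
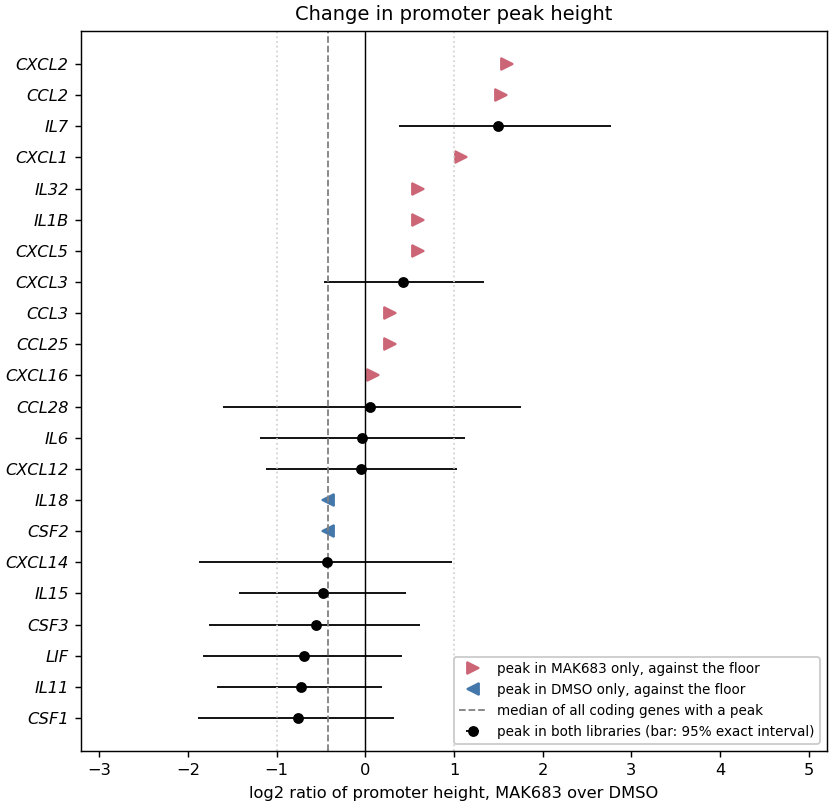
Log2 ratio of promoter height, MAK683 over DMSO (x axis), for the 22 members with a peak, in order of the ratio. Circles with bars are the 11 members with a peak in both libraries and their 95% exact counting intervals, triangles are members with a peak in 1 library set against the floor, the dashed line is the median of all protein-coding genes at -0.42, and dotted lines mark 2-fold. CXCL2, CCL2, IL7 and CXCL1 lay beyond 2-fold.

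Some peaks lay close to the edge of the window. Just inside 3 kb were the CSF2 peak, with its near edge 2765 bp from the start, and the DMSO peak of CCL28, at 2425 bp. Just outside, in MAK683, were peaks of 7 tags 3383 bp from CXCL9, of 10 tags 4437 bp from CX3CL1 and of 25 tags 5013 bp from CCL13. The last of these is the promoter peak of CCL1. The tallest peaks of CSF3 in DMSO and of LIF in MAK683 overlapped the window, but their summits lay 3438 and 3077 bp downstream of the start. With summits required within 3 kb, the log2 ratio was -0.46 for CSF3 and -0.93 for LIF.

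Other ligands of the same kind had a similar profile. Of 62 cytokine and chemokine genes outside the group, 21 had a promoter peak in DMSO (33.9%) and 38 in MAK683 (61.3%). A peak was in MAK683 only at 18 (7.87% of all protein-coding genes) and in DMSO only at 1 (1.84%), and 23 had none. Among genes without a DMSO peak, 18 of these ligands had a MAK683 peak and 23 did not, beside 1587 and 3916 of all protein-coding genes. The median log2 ratio over the 39 with a peak was 0.28. Those at least 2-fold higher were TSLP, an epithelial cytokine of allergic inflammation (0 tags listed in DMSO, 25 in MAK683, 1.92 over the floor), CCL1, a ligand of CCR8 (7 and 25 tags, 1.70), and IFNB1, the beta interferon (17 tags in MAK683 only, 1.36 over the floor). None of the 62 was at least 2-fold lower. Of all genes with a peak, 3.37% were at least 2-fold higher and 5.75% at least 2-fold lower. The 20 with a peak in both libraries had a median of -0.38, with 15 lower and 5 higher, and peaks called in MAK683 only are again above the floor by construction.

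The receptors of these ligands had similar shares. Of 41 cytokine and chemokine receptors with a TSS, 14 had a promoter peak in DMSO (34.1%) and 22 in MAK683 (53.7%). A peak was in MAK683 only at 8 (7.87% of all protein-coding genes) and in DMSO only at 0 (1.84%), and 19 had none. Among genes without a DMSO peak, 8 receptors had a MAK683 peak and 19 did not, beside 1587 and 3916 of all protein-coding genes. The median log2 ratio over those 22 was 0.45, with 16 higher and 6 lower, and 0 reached 2-fold in either direction. The 8 in MAK683 only are above the floor by construction. The 14 with a peak in both libraries had a median of 0.08, with 8 higher and 6 lower, beside the -0.46 of all such genes. By contrast, all 20 regulators of cytokine genes, among them the NF-kB subunits, AP-1 factors and signaling adaptors, had a peak in both libraries, at a median of 38 tags in DMSO and 30 in MAK683. Of these 18 were lower in MAK683, and the median log2 ratio of -0.51 lay beside the -0.46 of all genes with a peak in both. CEBPB, a C/EBP factor (36 and 18 tags, -1.14), and MYD88, an adaptor of Toll-like and interleukin 1 receptors (52 and 27 tags, -1.08), were at least 2-fold lower. So were 5.75% of all genes with a peak.

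Around the members, within 50 kb of the start and outside the promoter windows of the group, 185 peaks were called in DMSO and 226 in MAK683, a ratio of 1.22 (exact counting interval 1.001 to 1.49). The same ratio over all protein-coding genes was 1.15. The ratio of 1.22 became 0.908 when both lists were cut to equal numbers of peaks. Counts per gene left out only the promoter window of that gene, so promoter peaks of neighbouring members were included. The 6 MAK683 peaks counted for CCL7, and again for CCL11, were promoter peaks of CCL2. Counted this way, the median number per member was 1 in DMSO and 4 in MAK683. More peaks in MAK683 were counted at 25 of 38 members (65.8%), against 38.8% of all genes. These per-gene values are therefore not separate from the promoter results. Members of a cluster share some of these peaks. CX3CL1 had 2 peaks in DMSO and 11 in MAK683, and CXCL8 had 1 and 9. LIF (34 and 25 peaks) and IL11 (32 and 37 peaks) lay in the neighbourhoods with the most peaks.

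RefSeq promoters were found for 26 of the 38 members. Motifs and base content were taken from the 250 bases before the start, and the 50 bases after it were left out. A match to GGNNNTTCC was present in 13 of them (50%), where 17.1% of all 27305 promoters held one. TGANTCA, an AP-1 motif, was in 6 (23.1%, against 6.6%), TTGCNNAA, a C/EBP motif, in 5 (19.2%, against 9.13%), and the core of the interferon response element, GAAA repeated after 2 other bases, in 2 (7.69%, against 3.07%), all on both strands. TATAAA on the sense strand was in 10 (38.5%, against 7.17%). The 13 members with a GGNNNTTCC match included all 6 of the CXCL8-CXCL2 cluster. In that cluster the promoters of CXCL1, CXCL2 and CXCL3 were 70.1% to 81.4% identical, so the 13 are not independent. NF-kB matches were about as frequent in members with a peak in either library, 7 of 14, as in members with none, 6 of 12. TATAAA was in 2 of those 14 and in 8 of those 12. Base composition moved with the presence of a peak. The median GC content was 61.4% in the 14 with a peak, 42.2% in the 12 with none and 58% in all promoters, and its part in the calling of peaks was not tested.

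After filtering, 16598348 tags remained in DMSO and 18265284 in MAK683, so 1 tag was worth 0.0602 and 0.0547 RPM. The medians of the listed peaks were 11 and 10 tags. Promoters of cell type markers were also looked at. Of 6 genes of mesenchymal and kidney tumor cells, 4 had a peak in DMSO and 5 in MAK683, with summed heights of 119 and 115 tags. Of all protein-coding genes, 72.7% and 78.7% had one, so these counts lie near the general share and do not identify the cells. FN1 was higher in MAK683 (12 and 26 tags), SALL4 was lower (44 and 22 tags), CD44 had 8 tags in MAK683 only, and SOX9 had no peak. SMARCB1, which rhabdoid tumors lose, had no peak in either library. Of 8 blood cell markers, which matter here because leukocytes express many of these genes, 3 had a peak in each library, with summed heights of 76 and 52 tags carried mostly by CD68 (56 and 33 tags), while PTPRC, CD3E, CD14, ITGAM and CSF1R had none. Of 2 endothelial markers, TIE1 had none and CDH5 had 11 tags in MAK683 only.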

How the data were processed

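The authors trimmed the reads (Trim-galore) and aligned them with Bowtie2 to hg19, as the study's methods state. The file headers give MACS 2.1.1.20160309, run separately for the 2 libraries in narrow mode, while the submitters' processing notes name MACS2 2.1.0 and 2.2.7.1. Reads were placed with a shift of -100 bp and an extension to 200 bp, so that tags centre on the Tn5 cut. At most 1 tag was used at a position, peaks passed at a q-value of 0.05, and neither a control nor a local background was used, so regional coverage was not corrected. Paired reads were counted as single ends. The deposited peak lists give the signal (pileup height in tags, not scaled), the fold enrichment over the genome-wide background (a ratio), and −log10 p-values and −log10 q-values. Peaks too weak for the cutoff are not listed, so a missing peak is not a height of 0.

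Heights were divided by the tags after filtering and multiplied by 1000000. TSSs came from GENCODE 44 lifted to GRCh37 (the canonical or else the longest basic transcript). Exact binomial (Clopper-Pearson) and conditional intervals, Wilson intervals for shares and peak overlaps of at least 1 bp were computed with Python 3.11.15, numpy 2.4.6, pandas 2.3.3, scipy 1.17.1 and biopython 1.88, and tested on simulated data. Every member was accounted for, members within 500 kb of each other formed a locus, and genes outside the group were named where at least 2-fold apart or in a member's window. The members and lists were chosen with earlier results of these data known. Sequences were to be those of members with the largest log2 ratios. CXCL3 and CXCL8, of the same cluster, were added after their values were seen. CXCL6 of that cluster was not printed, nor were IL1B and IL32, whose ratios equaled that of CXCL5. PECAM1 had no TSS in this annotation and was not analysed here. Alternatives were stricter q limits, equal peak numbers, other windows and TSSs, other height scales and floors, and peaks in both libraries only.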

Additional observations from a re-analysis of the deposited data

How the results depend on the processing

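No paired analysis was possible because each group had 1 library. Of 345 values recomputed under alternatives, 20 changed sign and 18 counts moved by more than 1.5 times. The rest kept their direction but not always their size: under the q limits CCL2 went from 1.52 to 0.79 and 0.20, CXCL2 from 1.60 to 0.86 and 0.28, and CXCL1 from 1.08 to 0.35 under the first. With equal peak numbers they were at 1.08, 1.15 and 0.64. The number of members with a peak rested on weak peaks. With −log10 q of at least 5, 12 members had a peak in MAK683, 4 in MAK683 only and 1 in DMSO only. With at least 10, 7 had one in DMSO, 7 in MAK683 and 3 in MAK683 only. Of all protein-coding genes, 69.4% had a peak in DMSO and 71.9% in MAK683 under the limit of 5. Under the limit of 10 these shares were 62.4% and 60.5%. In a 10 kb window 0 had one in DMSO only. The median log2 ratio of 0.07 became -0.051 (−log10 q of at least 5), -0.072 (at least 10), -0.43 (peaks in both libraries only) and -0.24 (overlapping tallest peaks), and each stayed above the matching median of all genes, -0.43, -0.45, -0.46 and -0.46. The 4 members at least 2-fold higher became 1 or 0 under the q limits, 1 with peaks in both libraries or overlapping peaks, and 7 after the median of all genes was subtracted. At least 2-fold lower was 1 member in a 10 kb window (CXCL16, -1.06), where IL32 was at -0.44. The ratio of peaks around the members, 1.22, became 0.836 and 0.692 under the q limits and 0.908 with equal peak numbers. For the clusters, alternatives chosen after seeing the data gave 10 and 3 MAK683 peaks from CXCL8 to CXCL2 under the q limits, and from CCL2 to CCL13 0 DMSO peaks under either limit and 2 MAK683 peaks under the stricter. CSF2 and IL18 became 0.032 with equal peak numbers and 0.0068 after subtraction of the median. CXCL12 became 0.45 in a 1 kb window, 0.088 in raw tags, 0.0047 in fold enrichment and 0.37 after subtraction, and IL6 became 0.10, 0.015 and 0.38 under the last 3 of these. Member heights of 7 to 28 tags leave wide counting intervals.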
